A study of Mus musculus with 3 samples.

Results

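The genes described here were 8 Tudor-domain genes of the piRNA pathway, Tdrd1, Tdrkh, Tdrd5, Tdrd6, Tdrd7, Tdrd9, Tdrd12 and Rnf17. They were chosen by name, as every transcript model in the deposited table that carried one of these gene symbols. All 8 were found, on 8 different chromosomes, with 20 of the 50081 models of the table. Tudor domains are protein modules, many of which bind methylated arginines. In germ cells many of them hold on to the methylated tails of PIWI proteins. PIWI proteins carry PIWI-interacting RNAs (piRNAs), small RNAs that silence transposons. Tudor-domain proteins bring PIWI proteins, piRNA precursors and the processing enzymes together in the granules and on the mitochondria where piRNAs are made. Loss of many of these proteins stops spermatogenesis in the mouse.

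The models came from a study of wild-type C57BL/6J mouse testes that read capped 5′ ends of total RNA by CAGE, in 1 library at 10.5 days post partum and 1 adult library, and polyadenylated 3′ ends by PAS-Seq in 1 adult library. The deposited table gave 1 set of models for the series as a whole, with positions in mm9 and exon lengths. It held no value per library or read count, so depth is unknown, the libraries could not be compared, and a model's presence is not a level of expression. No test was run, because nothing in the table is replicated, and every value below is a description of 1 table.

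Of the 20 models, 13 were RefSeq-derived, named by an NM accession, and 7 carried a code with the letter N and an identifier of the form CUFF, as the Cufflinks assembler writes it. The 7 are called N-coded here, since the sources used here do not explain the code. At 8 of the 8 genes every model had a code beginning with NM, against 57.1% of the 22426 gene symbols with a RefSeq-derived model. All 25 marker genes of 5 testis cell types had a code other than XX, against 0 of 5 marker genes of other tissues. The share of all gene symbols with such a code is not given, so neither here nor below is it read as a mark of expression. CAGE read 5′ ends and PAS-Seq 3′ ends, and the labels do not state what data or annotation gave the exon chains. Whether reads of the 3 libraries shaped a given start or end, also of a RefSeq-derived model, is unknown. The table marks the coding part of every one of the 20 models as the whole model, so no reading frame could be followed.

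Sequences before starts of Tdrd1, Tdrd7 and Tdrd12 are shown because Tdrd1 and Tdrd7 had starts far apart, while the models of Tdrd12 shared 1 start and differed in their ends. RefSeq promoter windows were available for 6 of the 8 genes (11 windows, build GRCm38.p6) and were matched by symbol. They are not in the build of the models, so a window was tied to a model only where distances between starts allowed it. For Tdrd1 they did: the windows' 3 starts lay 66 and 4503 nt after the first, and so did the starts of NM_001002240 and NM_001002241 in the models. For Tdrd7 and Tdrd12 no such tie was found. Each sequence below is the 250 bases before a start, on the gene's own strand, with capitals marking 3 motifs searched on both strands. The shortest, CNGTT (complement AACNG), is the core that MYB proteins recognise. The longer CAGTTG (complement CAACTG) and GCAGTT (complement AACTGC) each contain that core and overlap each other in the letters CAGTT. The outermost Tdrd1 window held none of them. The first 2 are Tdrd1 (plus strand, chr19:56825959-56826208 and chr19:56830462-56830711), the next 2 Tdrd7 (plus strand, chr4:45965085-45965334 and chr4:45972581-45972830), and the last Tdrd12 (minus strand, chr7:35537745-35537994).
Tdrd1 outermost start: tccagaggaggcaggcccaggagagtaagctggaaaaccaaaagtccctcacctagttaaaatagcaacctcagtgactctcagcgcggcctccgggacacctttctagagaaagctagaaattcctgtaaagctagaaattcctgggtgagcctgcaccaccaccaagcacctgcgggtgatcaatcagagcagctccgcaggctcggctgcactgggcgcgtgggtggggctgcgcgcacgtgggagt
Tdrd1 inner start: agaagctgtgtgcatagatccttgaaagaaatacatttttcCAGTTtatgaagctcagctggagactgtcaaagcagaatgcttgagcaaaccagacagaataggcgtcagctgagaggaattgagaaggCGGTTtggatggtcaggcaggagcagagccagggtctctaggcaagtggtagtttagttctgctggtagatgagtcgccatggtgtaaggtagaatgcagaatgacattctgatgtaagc
Tdrd7 outermost start: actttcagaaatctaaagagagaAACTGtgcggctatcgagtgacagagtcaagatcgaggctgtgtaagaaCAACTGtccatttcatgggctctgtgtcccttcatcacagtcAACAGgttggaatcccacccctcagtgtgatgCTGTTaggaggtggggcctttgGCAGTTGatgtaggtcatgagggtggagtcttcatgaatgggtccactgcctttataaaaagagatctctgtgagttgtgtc
Tdrd7 innermost start: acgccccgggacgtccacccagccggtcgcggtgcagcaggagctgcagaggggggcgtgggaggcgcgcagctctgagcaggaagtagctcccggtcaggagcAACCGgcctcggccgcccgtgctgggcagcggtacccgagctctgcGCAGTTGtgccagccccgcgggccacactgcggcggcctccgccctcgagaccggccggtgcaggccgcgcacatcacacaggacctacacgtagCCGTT
Tdrd12 outermost start: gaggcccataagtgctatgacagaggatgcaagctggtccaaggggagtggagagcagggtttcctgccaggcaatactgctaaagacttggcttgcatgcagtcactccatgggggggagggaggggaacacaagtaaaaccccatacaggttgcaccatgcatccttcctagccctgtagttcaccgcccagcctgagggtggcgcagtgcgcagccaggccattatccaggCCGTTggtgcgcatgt

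The windows of Tdrd1 and Tdrd7 differed in composition between starts. At Tdrd1 the outermost window was 57.6% G or C with 11 CG dinucleotides, the next, 66 nt further in, 64% with 22, and the inner window 46.4% with 3. At Tdrd7 the outermost window had 47.6% and 3 CG dinucleotides, the next start, 6962 nt further in, 62% and 28, and the innermost, 534 nt beyond that, 73.2% and 29. The windows of Tdrd12, from starts 29 nt apart, had 58% with 5 and 59.2% with 6. Of the 11 windows, that of Tdrd5 had the highest content, 75.2% with 40 CG dinucleotides. The median of all 32851 windows of the table was 52.4% with 6. The short core CNGTT or its complement occurred in 10 of the 11 windows, and in 74.2% of all windows. The 11 are not separate sequences, since the windows of Tdrd12 overlap, as do the first 2 of Tdrd1. The core of Tdrd12 is 1 site counted in both of its windows. CAGTTG or its complement occurred in 2 of the 11 windows, both of Tdrd7, and in 11.1% of all windows. At Tdrd7 it lay 81 bases before the outermost start, with the complement also at 178, and 99 bases before the innermost. GCAGTT or its complement occurred in 3 of the 11 windows, of Tdrd7 and Tdrd1, and in 11.1% of all. A match of letters is not a binding site, and the windows of Tdrd9, Tdrkh, Tdrd5 and Tdrd12 held the short core without the longer forms.

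N-coded models fell to 4 of the 8 genes, Tdrd12, Rnf17, Tdrd7 and Tdrd5, while Tdrd1, Tdrd6, Tdrd9 and Tdrkh had RefSeq-derived models alone. Among 13174 genes with an NM-coded RefSeq model on 1 chromosome and strand, 39.9% had an N-coded model, so the share of the 8 genes was near the background. Neighbouring starts no more than 50 nt apart were taken as 1 start, and ends likewise. The 8 genes then had 16 starts and 12 ends, and the 20 models had 20 different chains of introns. At least 2 starts were found for 4 genes (Tdrd1, Tdrd5, Tdrd7 and Rnf17), against 36.3% of all genes. At least 2 ends were found for 4 (Tdrd5, Tdrd7, Tdrd12 and Rnf17), against 32.6%.

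**Figure D1:**
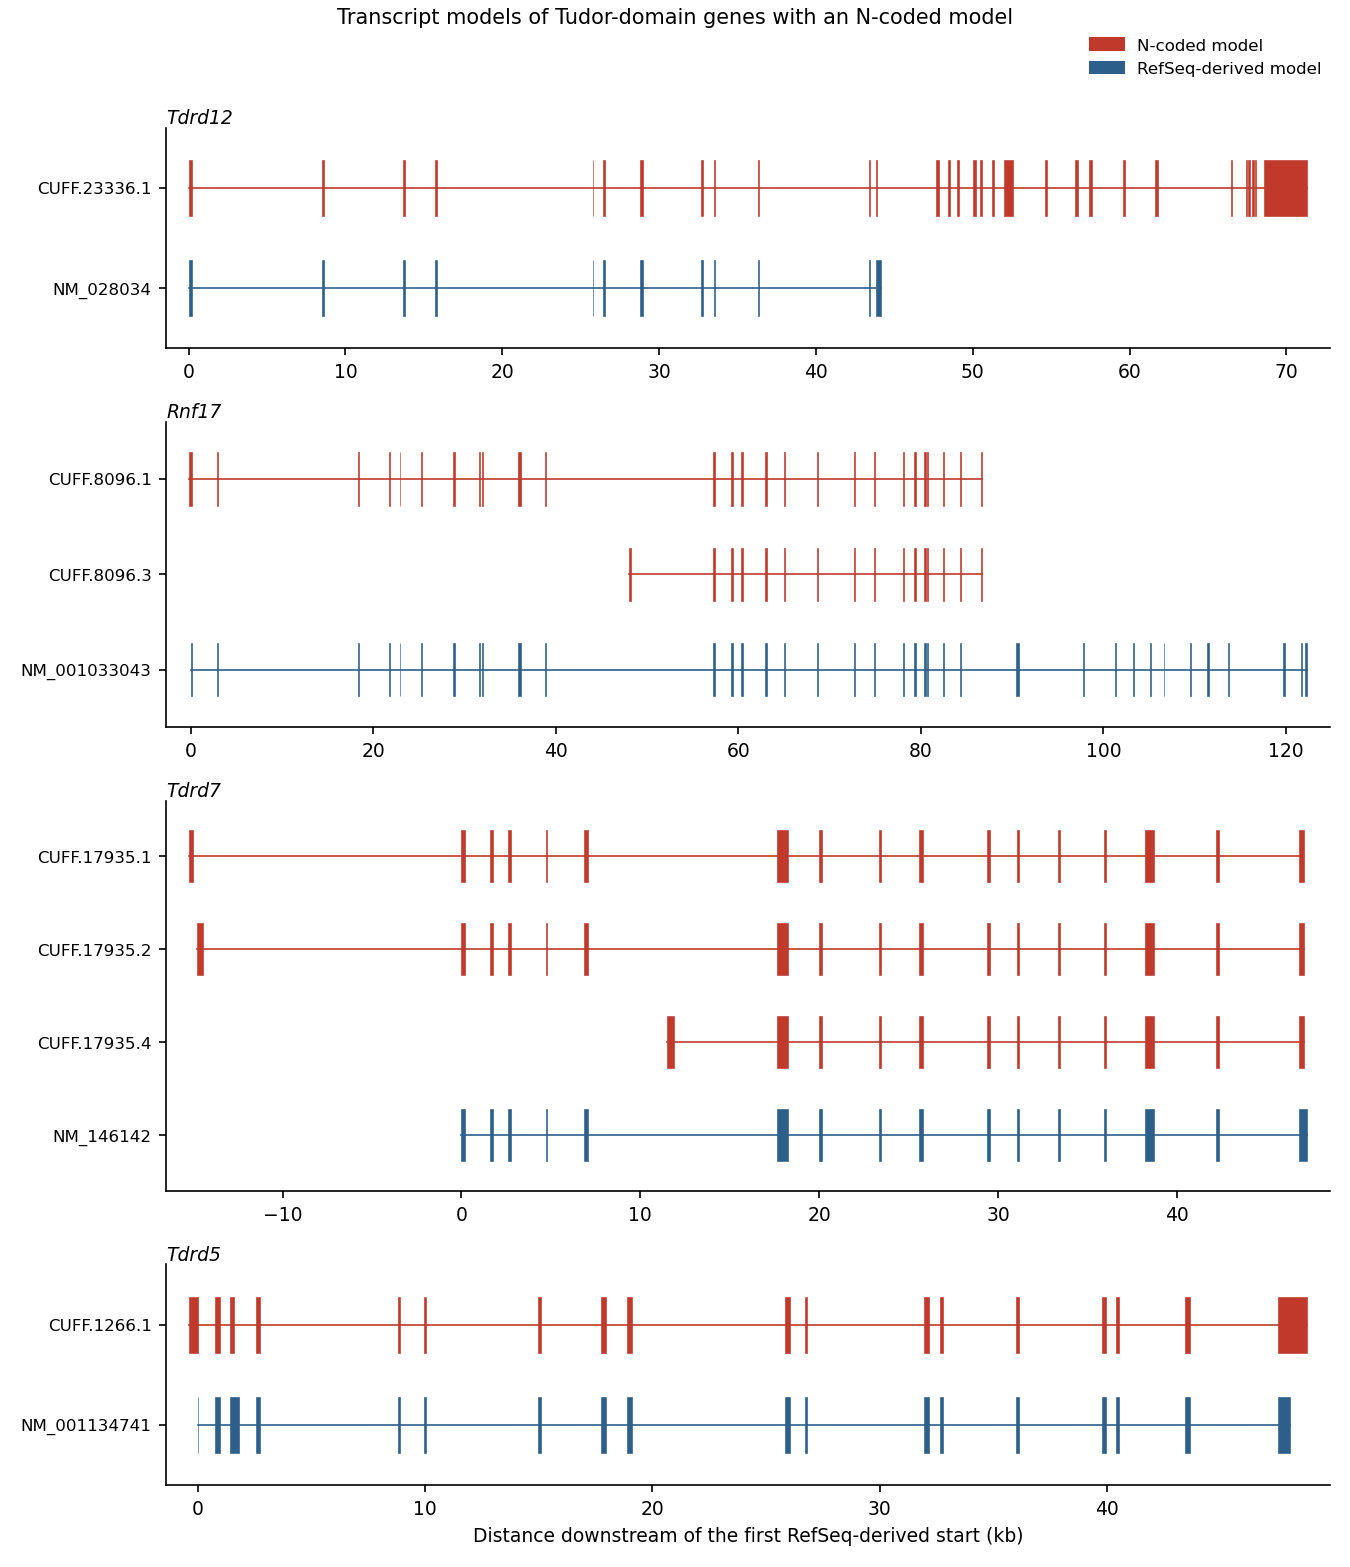
Models of the 4 genes with an N-coded model, drawn in the direction of transcription; the x axis is the distance in kb from the RefSeq-derived start, with its own scale in each panel, boxes are exons (a thin outline slightly widens the shortest) and lines are introns. The N-coded model of Tdrd12 ran 27199 nt past the RefSeq end, those of Rnf17 stopped 35610 nt short of it, and those of Tdrd7 started 15248 and 14786 nt before and 11511 nt after the RefSeq start.

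Tdrd12 encodes a helicase-like protein with Tudor domains that is needed for secondary piRNA production in fetal germ cells. It showed the most extended model of the 8 genes. CUFF.23336.1 (chromosome 7, 36251430 to 36322763, minus strand) had 30 exons and a spliced length of 6902 nt, against 12 exons and 1621 nt in NM_028034 (36278629 to 36322763). The N-coded model was 4.26 times as long after splicing. Both models began at the same base, 36322763, with a first exon of 231 nt, and all 11 introns of the RefSeq-derived model were in the N-coded one.

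The models parted in exon 12. In the N-coded model this exon was 108 nt and was followed by an intron of 3714 nt, whereas in NM_028034 it was 328 nt and ended the model, 220 nt further into that intron. A RefSeq end inside an intron of an N-coded model was found at 1 of the 8 genes, Tdrd12, and at 2.5% of all genes. The rule was chosen after the table was seen, and only the 5257 genes with an N-coded model could meet it. Beyond exon 12 the N-coded model had 18 more exons, of 5501 nt together, 79.7% of its spliced length. The 17 internal ones were 64 to 535 nt long with a median of 129 nt, and the last exon was 2782 nt. The N-coded end lay 27199 nt beyond the RefSeq end, a larger extension than in 96.2% of the 1664 N-coded models that ended downstream of every RefSeq end of their gene. It brought the 3′ end to 376 bp from that of Slc7a9, an amino acid transporter gene on the other strand, against 27575 bp for the RefSeq-derived end. A single-exon model of 243 nt on the same strand, CUFF.23339.1, lay within intron 20 of the N-coded model.

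Rnf17 encodes a protein with a RING finger and Tudor domains that restrains the piRNA amplification cycle in meiotic germ cells. Its N-coded models ended short of the RefSeq end. CUFF.8096.1 (chromosome 14, 57021311 to 57108258, plus strand) had 26 exons and 3703 nt, and CUFF.8096.3 (57069520 to 57108258) had 16 exons and 2382 nt. The RefSeq-derived NM_001033043 (57021534 to 57143868) had 37 exons and 5147 nt. Both N-coded models ended at 57108258, in a last exon of 111 nt that overlapped no exon of NM_001033043 and lay in its intron 25. That exon followed exon 25 after an intron of 2233 nt, against 6040 nt for intron 25 of the RefSeq-derived model. The 12 RefSeq exons after exon 25, of 1766 nt or 34.3% of the spliced length, were in neither N-coded model. An N-coded end inside a RefSeq intron was found at 1 of the 8 genes, Rnf17, and at 6.14% of all genes. The rule was chosen after the table was seen, and only the 5257 genes with an N-coded model could meet it.

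At the 5′ side the 2 N-coded models of Rnf17 differed from each other. CUFF.8096.1 began 223 nt upstream of the RefSeq start, in a first exon of 351 nt against 128 nt, and kept RefSeq exons 1 to 25. In exon 11 it used an acceptor site 12 nt further downstream, which gave 78 nt against 90 nt. CUFF.8096.3 began 47986 nt downstream of the RefSeq start, in an exon of 209 nt within RefSeq intron 11, and joined RefSeq exons 12 to 25. That intron, of 18345 nt, was the longest of NM_001033043. The first 11 RefSeq exons, of 1319 nt, were missing from CUFF.8096.3. Another single-exon model, CUFF.8099.1 of 944 nt, lay on the same strand in intron 2. Past the RefSeq end, the Cenpj gene for a centriole protein ended on the other strand 1729 bp away.

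Tdrd7, a component of the chromatoid body of spermatids that is also needed in the lens, had the most starts, 4. A pair of N-coded models began far upstream: CUFF.17935.1 (chromosome 4, 45985086 to 46047453, plus strand) by 15248 nt and CUFF.17935.2 (45985548 to 46047453) by 14786 nt. Their starts were 462 nt apart, with first exons of 223 and 320 nt. CUFF.17935.4 (46011845 to 46047453) began 11511 nt downstream of the RefSeq start in an exon of 384 nt. NM_146142 itself ran from 46000334 to 46047631 in 16 exons and 3510 nt. The N-coded models had 17, 17 and 12 exons, and 3555, 3652 and 2888 nt.

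The first exon of NM_146142 was exon 2 of both upstream N-coded models. Their first introns, of 15025 and 14466 nt, ended at 46000333, so the acceptor site fell exactly at the RefSeq start. A RefSeq start on the acceptor of an N-coded intron was found at 1 of the 8 genes, Tdrd7, and at 28 of all 13174 genes (0.213%). The rule was chosen after the table was seen, so Tdrd7 meeting it is not a test. Only the 5257 genes with an N-coded model could meet it. All 15 introns of NM_146142 were in both models. The inner model, CUFF.17935.4, shared 10 of them and lacked RefSeq exons 1 to 5, of 828 nt or 23.6% of the spliced length. Its start lay in RefSeq intron 5, of 10592 nt, which was the longest of that model, as at Rnf17. Over all genes, 34.7% of 2441 N-coded models that began in a RefSeq intron did so in the longest one. At those models the longest intron made up a median of 39.2% of the summed length of RefSeq introns. It made up 24.2% at Tdrd7 and 15.7% at Rnf17. The 3 N-coded models of Tdrd7 ended at the same base, 178 nt before the RefSeq end, in a last exon of 286 nt against 464 nt.

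Tdrd5, needed for chromatoid body assembly and for pachytene piRNAs, had an N-coded model that was longer at both ends and kept most introns. CUFF.1266.1 (chromosome 1, 158184679 to 158233872, minus strand) and NM_001134741 (158185426 to 158233479) both had 18 exons and shared 15 of their 17 introns. The N-coded model began 393 nt upstream, with a first exon of 431 nt against 38 nt. It ended 747 nt downstream, with a last exon of 1297 nt against 550 nt. Its spliced length was 4350 nt, against 3444 nt. Within the chain, the donor site of exon 3 lay 231 nt earlier, giving 162 nt against 393 nt. The acceptor site of exon 9 lay 3 nt later, giving 218 nt against 221 nt.

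An opposite-strand model covered the 5′ end of Tdrd5. CUFF.1269.1 (158231958 to 158234446, plus strand) had 3 exons and 1321 nt, and both of its introns had the same coordinates as introns 1 and 2 of Tdrd5. It overlapped exons 1 to 3 of the N-coded model by 747 bp and of the RefSeq-derived model by 354 bp, and reached 574 bp beyond the N-coded start and 967 bp beyond the RefSeq start. An intron shared to the base with a model on the other strand was found at 1 of the 8 genes, Tdrd5, and at 52 of all genes (0.395%). That rule was also chosen after the table was seen. How strand was assigned is not stated in the labels and was not tested, so reads of Tdrd5 and of this model cannot be told apart here.

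**Figure D2:**
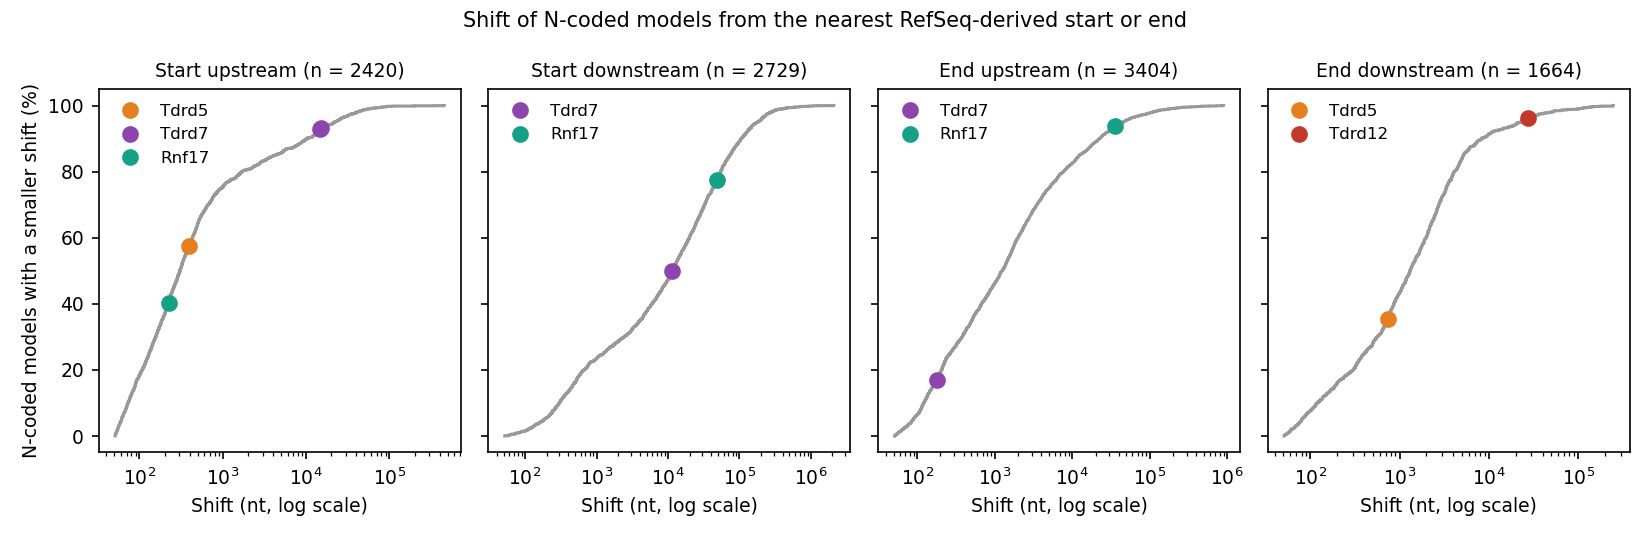
Shift of N-coded models from the nearest RefSeq-derived start or end, in nt on a log axis, for models more than 50 nt up- or downstream of every one; grey lines are the cumulative share over all N-coded models of that kind in 13174 genes, and points are the Tudor-domain genes. Tdrd12 sat at 96.2% among extended ends, Rnf17 at 93.7% among shortened ends, and the upstream starts of Tdrd7 at 93.1% and 92.9%.

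Set against all N-coded models, the shifts of these genes covered a wide range, as the plot of shifts shows. An N-coded start upstream of every RefSeq start by more than 50 nt was found at 3 of the 8 genes (Tdrd5, Tdrd7 and Rnf17), against 15.4% of all genes. The upstream shifts of Tdrd5 and Rnf17 were close to the median of 305.5 nt, and those of Tdrd7 exceeded 93.1% and 92.9% of 2420 such models. An N-coded start downstream of every RefSeq start was found at 2 (Tdrd7 and Rnf17), against 17.4%, and an N-coded start inside a RefSeq intron at the same 2, against 17.3%. The shift of Tdrd7, 11511 nt, was larger than 50% of 2729 such models, and that of Rnf17, 47986 nt, larger than 77.6%. An N-coded end upstream of every RefSeq end was found at 2 (Tdrd7 and Rnf17), against 20.5%. Tdrd7's 178 nt was small among these, larger than 16.8% of 3404, and Rnf17's 35610 nt larger than 93.7%. An N-coded end downstream was found at 2 (Tdrd5 and Tdrd12), against 9.88%. These counts over 8 genes were not tested against the background.

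The shifted splice sites of the N-coded models were all multiples of 3 nt. There were 3 of them, 231 nt at a donor and 3 nt at an acceptor of Tdrd5, and 12 nt at an acceptor of Rnf17. Over all genes, 52.1% of 1468 shifted sites were multiples of 3, 59.3% of 877 at acceptors and 41.5% of 591 at donors. A shift of exactly 3 nt made up 31.5% at acceptors and 1.86% at donors.

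**Figure D3:**
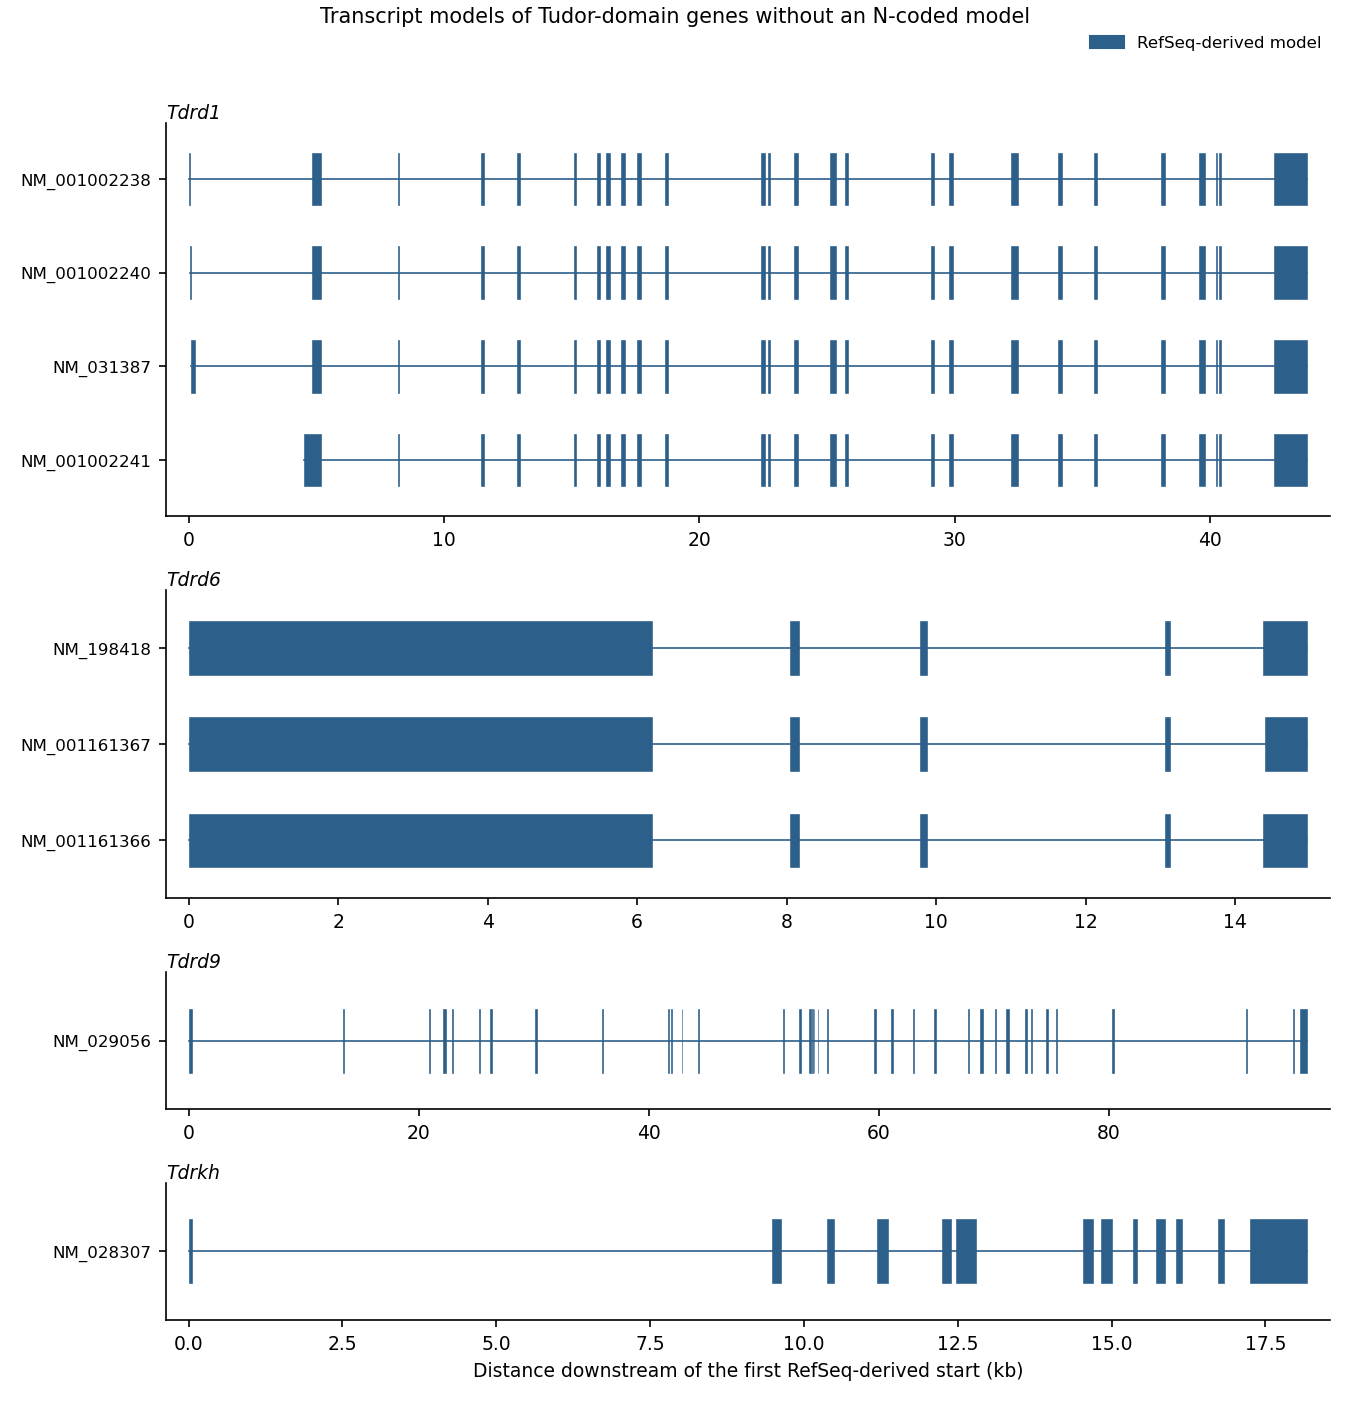
Models of the 4 genes with RefSeq-derived models alone, drawn as distance in kb downstream of the first RefSeq-derived start, with its own scale in each panel; boxes are exons (a thin outline slightly widens the shortest) and lines are introns. The 4 models of Tdrd1 differed in their first exons, and the first exon of Tdrd6 took up 6193 nt.

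Tdrd1, a scaffold protein of the cement between mitochondria that binds the PIWI protein MILI, had 4 RefSeq-derived models with 1 shared end (chromosome 19, 56944502, plus strand). NM_001002238, NM_001002240 and NM_031387 began close together, the first at 56900699 and the next ones 66 and 77 nt after it. Their first exons were 56, 29 and 189 nt, and each was spliced to the same second exon of 333 nt. NM_001002241 began 4503 nt after the first, at 56905202, in an exon of 662 nt that reads 329 nt of upstream intron before that same exon. The models had 26, 26, 26 and 25 exons and spliced lengths of 4914, 4887, 5047 and 5187 nt. They shared 24 introns, so all their differences lay at the 5′ end.

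Tdrd6, which organises the chromatoid body of spermatids, had most of its transcript in 1 exon. Its 3 models (chromosome 17, 43752284 to 43767248, minus strand) shared 1 start and 1 end and had 5 exons each. The first exon, of 6193 nt, made up 87.7% to 88% of the spliced lengths of 7059, 7041 and 7062 nt. It was longer than the first exon of 99.9% of all genes, of which 11 had one over 6000 nt. The models differed at 2 acceptor sites. NM_198418 and NM_001161367 had an exon 2 of 125 nt, against 128 nt in NM_001161366. NM_001161367 also had a last exon of 569 nt, against 587 nt in both others.

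Tdrd9 and Tdrkh had 1 model each. Tdrd9, a helicase with a Tudor domain that acts with the PIWI protein MIWI2, was NM_029056 (chromosome 12, 113209770 to 113307065, plus strand), with 36 exons and 4809 nt. Its exons covered 4.94% of the span, and intron 1, of 13136 nt, held the 3-exon gene BC048943 on the other strand. Tdrkh, which joins KH and Tudor domains on the mitochondrial surface and is needed for trimming piRNA 3′ ends, was NM_028307 (chromosome 3, 94217240 to 94235421, plus strand), with 13 exons and 2650 nt. Its first exon was 51 nt, followed by an intron of 9433 nt, of a span of 18182 nt. Oaz3, a spermatid gene, ended on the other strand 1666 bp past its end.

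**Figure D4:**
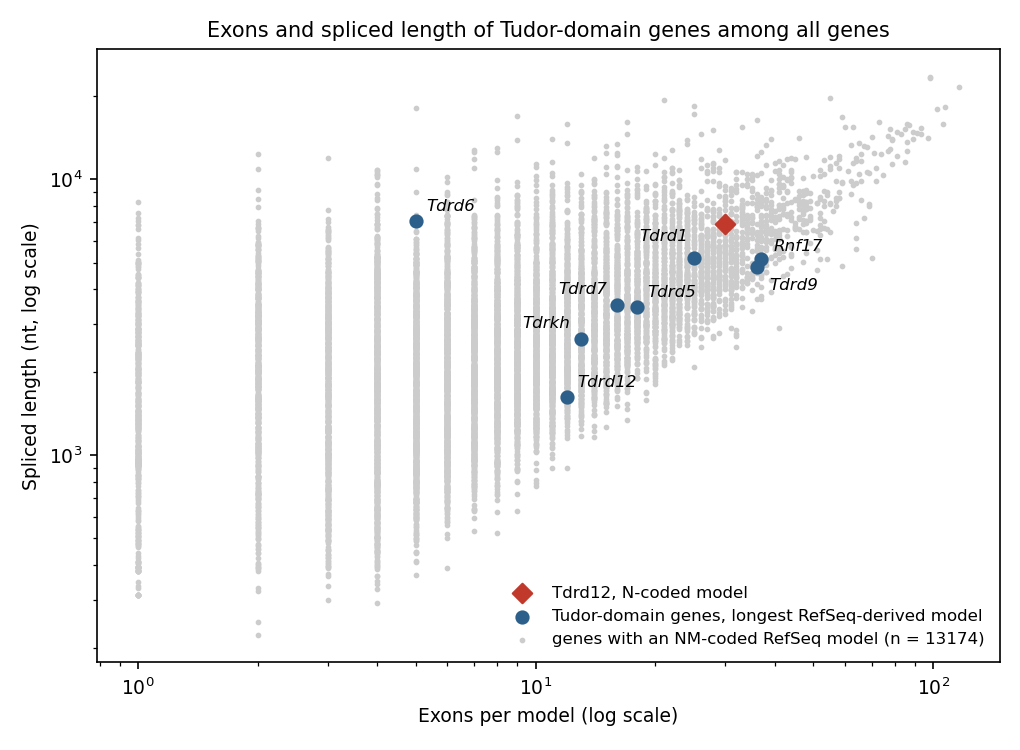
Exons per model and spliced length in nt, both on log axes; blue points are the longest RefSeq-derived model of each Tudor-domain gene, the red diamond is the N-coded model of Tdrd12 and grey points are the longest RefSeq-derived models of 13174 genes. Tdrd6 had 7062 nt in 5 exons, and Rnf17 and Tdrd9 had 37 and 36 exons.

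In exon number the genes were mostly above the rest. The longest RefSeq-derived model of each gene had a median of 17 exons and 4159.5 nt, against 9 exons and 2684 nt over 13174 genes, and 7 of 8 were above the median of exons. Rnf17 and Tdrd9, with 37 and 36 exons, exceeded 97.5% and 97.3% of genes, and Tdrd1 with 25 exceeded 92.1%. Tdrd6 was the exception, with 5 exons, more than 22.7% of genes, and a spliced length above 94.5%. By its RefSeq-derived model Tdrd12 was the shortest of the 8, above 23.8% of genes in spliced length. The N-coded model of Tdrd12, at 6902 nt, was longer than the longest RefSeq-derived model of each of the other genes except Tdrd6. Of the 146 internal exons of these models, 62 (42.5%) had a length that was a multiple of 3 nt, against 39.7% of 122200 over all genes. Tdrd1 with 73.9% and Tdrd5 with 62.5% were the highest, and Tdrkh with 18.2% the lowest.

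No gene of the 8 had a head-to-head partner, a start on the other strand 1 to 500 bp upstream of one of its own, against 16.2% of all genes. Among upstream neighbours on the other strand within 10000 bp, the single-exon model CUFF.1253.1 was separated from Tdrd5 by 1948 bp. CUFF.13826.2 was 4007 bp from Tdrd1 and CUFF.13828.1 8973 bp, and 2010107E04Rik was 4581 bp from Tdrd9. Upstream on the same strand, Lingo4 was 8816 bp from Tdrkh and Nudt19 9440 bp from Tdrd12. No piRNA-named model overlapped any of the 8 genes (0 models). No share over all genes was set beside this count, so nothing is read from it. Downstream on the same strand, Vwa2 began 4403 bp past Tdrd1 and Tmod1 4462 bp past Tdrd7, while Pla2g7 ended 3133 bp past the end of Tdrd6 on the other strand.

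Other genes with Tudor domains and other genes of the pathway were counted in the same way. Of 17 other Tudor-domain genes 16 were found, 14 with a code other than XX, and 6 had an N-coded model. Of these 16, 3 had an N-coded start upstream of every RefSeq start, 2 an N-coded start downstream, 4 an N-coded end upstream and 0 an N-coded end downstream. All 16 other piRNA pathway genes were found, 15 with a code other than XX, and 5 had an N-coded model. Their numbers were 2, 1, 2 and 2 for the same 4 kinds of shift. Over all genes, 39.9% had an N-coded model, and the shares of the 4 kinds were 15.4%, 17.4%, 20.5% and 9.88%. None of either list had a RefSeq end inside an N-coded intron, as at Tdrd12 (0 genes), against 2.5% of all genes. A RefSeq start on an N-coded acceptor, as at Tdrd7, was also found at none (0 genes), against 0.213%. An N-coded end inside a RefSeq intron, as at Rnf17, was found at 1 of the other Tudor-domain genes and at 0 of the other piRNA pathway genes. The share over all genes was 6.14%. No contrast is read from these small counts.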

How the data were processed

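Per the labels, CAGE was run on total RNA from testes of wild-type C57BL/6J mice at 10.5 days post partum and in adults, and PAS-Seq on adult testes (read length 100 nt), with 1 library per group. The authors deposited 1 headerless table of 12 columns in BED layout, with 1 transcript model per line. TopHat2 2.0.4 and build mm9 are named in the submitters' processing notes. The labels do not state how models were assembled, ended and filtered.

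Models were taken by gene symbol and none was filtered out. N-coded models were those with _N in the code. Positions were counted from 1. Starts or ends no more than 50 nt apart were chained into 1. Background shares are over genes with an NM-coded RefSeq model on 1 chromosome and strand, except that of codes, over all gene symbols with a RefSeq-derived model. Exon chains were set against the RefSeq-derived model of the gene with the longest spliced length. All 13 RefSeq accessions matched the same symbol in the RefSeq gene table of GRCm38.p6, used for names only. Promoter windows were taken from RefSeq in that build. Python 3.11.15, numpy 2.4.6 and matplotlib 3.10.9 were used, and the start and end calls were checked on made-up models.

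The genes and lists were chosen with earlier results of these data known. The rule named all 8 genes, their partners and neighbours within 10000 bp, of which 1 is not reported here. Motifs and the rules on introns and splice sites were chosen after the table was seen.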

Additional observations from a re-analysis of the deposited data

How the results depend on the processing

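Of 27 alternative settings over 9 counts, 26 gave a count within 1.5 times that reported, and 21 the identical count. Counting exact starts, or a distance of 10 nt, gave 17 and a distance of 100 or 200 nt gave 15, against 16, because the starts of NM_001002238 and NM_001002240 of Tdrd1 are 66 nt apart and those of NM_001002240 and NM_031387 less than 50 nt. Ends numbered 11 at 200 nt, against 12. The exception was N-coded models with an end upstream of every RefSeq end, which numbered 2 when more than 200 nt was asked for, against 5 at 50 nt. The 3 models lost were those of Tdrd7, by construction, since each ended 178 nt before the RefSeq end. The number of N-coded models was 7 by code, by assembler identifier and by exon overlap. The identifier could not differ, since all 9495 N-coded models of the series had a CUFF name. Every model of these genes was spliced, so asking for 2 or more exons could not change starts or ends. The 20 chains of introns already differed, so adding starts and ends could not change their number. Start shifts were 223 nt or more and extended ends 747 nt or more, so raising the distance to 200 nt could remove none. With 0 head-to-head partners within 500 bp, there could be none within 250 bp. These identical counts are therefore no evidence of stability. With 1 library per group and no value per library, no replicate could be left out, and depth limits cannot be given.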
